A study of Mus musculus with 2 samples.

Results

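Noncanonical miRNAs were followed in small RNA of J1 mouse ES cells as 8 annotated hairpins, Mir320, Mir484, Mir877, Mir702, Mir1224, Mir1839, Mir1981 and Mir1983, of the 1174 miRNA hairpins used. The members were fixed by name, and every sequenced tag that matched one of them without mismatch was counted. They held 268 of the 8580 distinct tags on hairpins, with 97633 reads (4.48% of the hairpin reads) under DMSO and 124762 (3.76%) under AICAR. J1 is a mouse ES cell line, adapted here to growth on gelatin with LIF, the cytokine that holds mouse ES cells undifferentiated. AICAR, an activator of AMP-activated protein kinase, was given at 1 mM for 24 h, and the control cells received the same volume of DMSO (0 mM AICAR) for 24 h. One library came from each treatment, the control being titled J1_U but labelled DMSO, and no replicate check of any difference was possible. A p-value below therefore compares these libraries and not the treatments.

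Most miRNA hairpins are cut out of a longer transcript by the Microprocessor, the complex of the nuclease Drosha and its RNA-binding partner DGCR8, and are then cut by Dicer into short duplexes. Several kinds of hairpin enter this pathway at the Dicer step. Mirtrons are short introns that fold into a hairpin once splicing and debranching have released them, so their ends are splice sites. Capped hairpins begin at the start of transcription and keep the cap of the transcript, and other hairpins are folded from small structural RNAs such as snoRNAs, Cajal body RNAs (scaRNAs) or tRNAs. ES cells without Dgcr8 or Dicer are the setting in which many of these hairpins were first told apart from ordinary miRNAs.

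The mature sequences of the main arm of each hairpin show what the tags had to match, and RefSeq (GRCm38.p6) gave them for 7 of the 8 members. Capitals mark the seed (bases 2 to 8 from the 5′ end), and the sequence of Mir320 is its most abundant tag, in DNA letters as deposited.
Mir320-3p tag: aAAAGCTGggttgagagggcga
miR-484: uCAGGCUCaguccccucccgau
miR-877-5p: gUAGAGGAgauggcgcaggg
miR-702-5p: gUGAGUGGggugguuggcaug
miR-1224-5p: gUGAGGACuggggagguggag
miR-1981-5p: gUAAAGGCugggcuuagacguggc
miR-1839-5p: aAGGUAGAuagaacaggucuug
miR-1983: cUCACCUGgagcauguuuucu
The 4 mirtron sequences, miR-877-5p, miR-702-5p, miR-1224-5p and miR-1981-5p, all begin with GU, the first bases of the introns that they come from. No seed was shared between members, and none was found on another hairpin arm with at least 1 RPM (reads per 1000000 clean reads) in a library.

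The libraries held 18870345 (DMSO) and 21091226 (AICAR) clean reads, of which 11.6% and 15.7% lay on miRNA hairpins. One read was worth 0.05299 and 0.0474 RPM. Short tags were more common under DMSO: tags under 21 nt held 9.49% of its hairpin reads, against 3.81% under AICAR. The ES cell hairpins Mir290a to Mir295 held 28.9% and 36.8% of the hairpin reads, whereas the 4 hairpins fixed as markers of fibroblast feeder cells held 0.0801% and 0.0583%. Of the other marker lists, the liver hairpin Mir122 stood at 2.91 RPM under DMSO and 25.4 RPM under AICAR, and the 3 neuronal Mir124a hairpins at 257 and 409.7 RPM. Intervals in the text are 95% intervals and cover counting error only, not the spread between libraries. They treat each read as independent, which PCR copies are not, so they may be too narrow.

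Of the 14 member arms with reads, 10 reached 1 RPM in at least 1 library, the limit for testing that 516 of 1144 arms met. Past a fold change of 2 or 0.5 with p at most 0.01 (Fisher's exact test, two-sided), 1 member arm was higher in the AICAR library, where 10.5% of all arms tested were called higher. Another 1 was lower, where 9.11% of all arms were called lower. The arm that rose was Mir484-5p and the arm that fell was Mir1983-5p. The other 8 were not called, and the median fold change of the 10 was 1.12, beside 1.095 over all arms tested. Relative to hairpin reads instead of clean reads, the median log2 fold change of all arms moved from 0.13 to -0.31, and 9 of the 10 member arms then lay below 1. The hairpins thus spanned a wide range of levels but, per clean read, mostly stood at close levels in both libraries, as the plot of levels and fold changes shows.

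**Figure D1:**
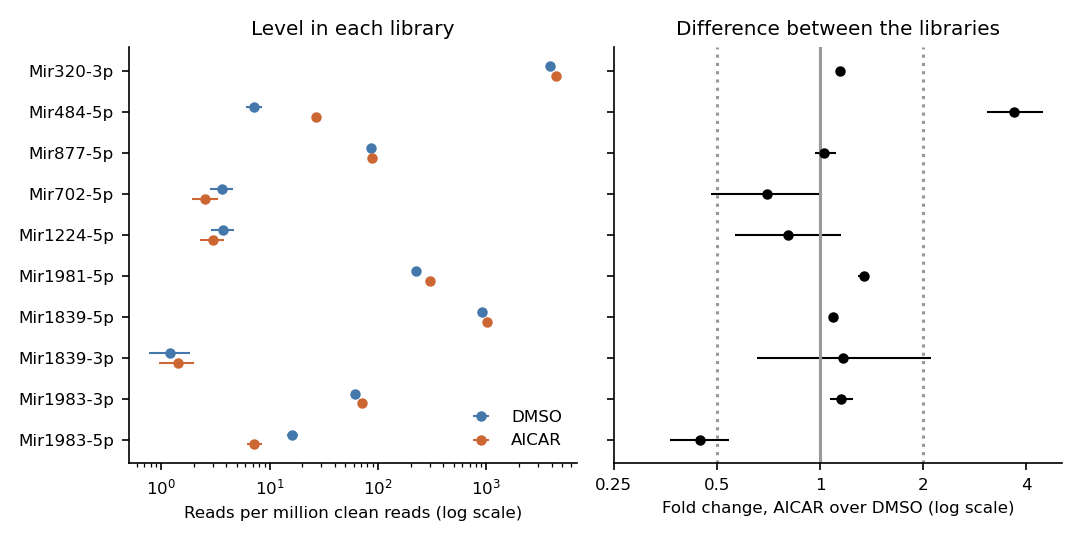
Level of each member arm in the DMSO and AICAR libraries (left, RPM on a log scale, bars are 95% Poisson intervals of the reads) and the fold change between them (right, log scale, bars are 95% intervals, dotted lines at 0.5 and 2). Mir484-5p lies above 2 and Mir1983-5p below 0.5, and the other 8 points lie between the dotted lines.

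Mir320, the best-known capped hairpin, was the most abundant member. Its gene is ENSMUSG00000065528, which overlaps no other annotated gene on its strand.
All reads lay on the 3p arm, 72656 under DMSO (3850.3 RPM) and 92978 under AICAR (4408 RPM). On the 5p arm 0 of 165634 reads were found. The fold change of 1.14 (1.13 to 1.16) was small beside the thresholds, and it was 0.842 relative to hairpin reads. The 5′ end of the reads was at position 48 of the hairpin in 89.7% of the DMSO reads (89.5% to 89.96%) and 92.97% of the AICAR reads (92.8% to 93.1%). The next position held 7.48% and 4.901%. A start 1 base later shifts the seed by 1 base, so the reads carried a second, minor seed in both libraries. Tags were mostly 22 nt (65.5% and 62.3%) or 23 nt (23.9% and 30.4%), and they ended mostly at position 69 or 70.

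Mir484, the other member listed as a capped hairpin from the literature, differed most between the libraries. Whether it is capped in these cells was not tested. It lies at chr16:14159626-14159692 on the plus strand (ENSMUSG00000070074, build GRCm38, as for all positions given) and overlaps no other gene on its strand. Marf1 lies on the other strand, with a transcript that starts 359 nt away, and Nde1 starts 3649 nt away on the same strand. Mir484-5p was read 137 times under DMSO (7.26 RPM) and 565 times under AICAR (26.8 RPM). The AICAR level was 3.69-fold higher (3.06 to 4.48, p = 8.5e-53 by Fisher's exact test of the libraries), and 2.71-fold higher relative to hairpin reads. It was not called when libraries were assumed to vary by a coefficient of variation of 0.4 (edgeR's exact test), and neither was Mir1983-5p. The 3p arm had 6 and 2 reads, below the limit for testing. Of the members listed as capped, Mir320 thus used the 3p arm and Mir484 the 5p arm.
The 5p arm held 95.8% of the Mir484 reads in the DMSO library (91.1% to 98.1%) and 99.6% in the AICAR library (98.7% to 99.9%). Its 5′ end was uniform. In the DMSO library 133 of 137 reads began at position 5 of the hairpin, and in the AICAR library all 565 did. The most abundant tag was the 22 nt sequence of RefSeq, with 91 and 442 reads, followed by a tag 1 nt shorter, with 29 and 71 reads. Both tags were higher under AICAR, and counting tags of 21 nt or more alone the arm was 3.72-fold higher.

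The 4 mirtrons shared the 5p arm as main arm and a 5′ end at a splice donor. Of these, 3 fill an annotated intron exactly, from the first base to the last. They are shown with the most abundant tag in capitals, to set the tag against the intron's first bases.
Mir877: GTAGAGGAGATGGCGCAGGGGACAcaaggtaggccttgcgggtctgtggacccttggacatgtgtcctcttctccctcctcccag
Mir1224: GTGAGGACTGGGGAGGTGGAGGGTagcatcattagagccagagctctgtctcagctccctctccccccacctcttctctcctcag
Mir1981: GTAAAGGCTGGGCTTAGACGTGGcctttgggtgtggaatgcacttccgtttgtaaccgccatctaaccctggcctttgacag
Each begins with gt and ends with ag, the bases at the 2 ends of most introns. Mir877 (chr17:35960730-35960814, minus strand) is intron 12 of 22 of Abcf1, which encodes an ATP-binding cassette protein with a role in translation. Mir1224 (chr16:20604452-20604536, plus strand) is intron 22 of 22 of Vwa5b2, and Mir1981 (chr1:184822407-184822488, minus strand) is intron 5 of 7 of Marc2. Mir702 (chr5:136991433-136991541, plus strand) starts inside an exon of Plod3, a collagen lysyl hydroxylase gene. Intron 13 of 18 begins at its position 10 and ends just past the hairpin.

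Of the reads on the 5p arm in the libraries together, 3387 of 3472 (97.6%) began at the first intron base for Mir877, 133 of 133 for Mir1224 and 10622 of 10623 (99.99%) for Mir1981. For Mir702 they were 112 of 123 (91.1%), and the other 11 reads began 1 base later. The 3p arms were nearly empty. Mir877-3p had 2 and 3 reads, Mir702-3p had 1 and 7, Mir1981-3p had 9 and 13, and Mir1224-3p had none. The last intron base was the 3′ end of 4 of the 5 Mir877-3p reads and of 3 of the 22 Mir1981-3p reads. For Mir702 that base lies past the hairpin, so no tag counted here could end at it.
In levels the mirtrons split into an abundant and a scarce pair. Mir1981-5p was read 4258 times under DMSO (226 RPM) and 6365 times under AICAR (302 RPM). Its fold change was 1.34 (1.29 to 1.39), and 0.984 relative to hairpin reads. Mir877-5p, at 1611 (85.4 RPM) and 1861 reads (88.2 RPM), had a fold change of 1.03 (0.966 to 1.11), and of 0.7601 (0.711 to 0.813) relative to hairpin reads. Mir702-5p had 69 (3.66 RPM) and 54 reads (2.56 RPM), and its fold change of 0.7002 (0.481 to 1.01) could not be told from 1 at this depth, but relative to hairpin reads it was 0.515 (0.354 to 0.746). Mir1224-5p, with 70 (3.71 RPM) and 63 reads (2.99 RPM), stood at 0.805 (0.564 to 1.15), an interval that includes 1, and at 0.592 (0.415 to 0.844) relative to hairpin reads. No mirtron arm passed the thresholds with either denominator.

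**Figure D2:**
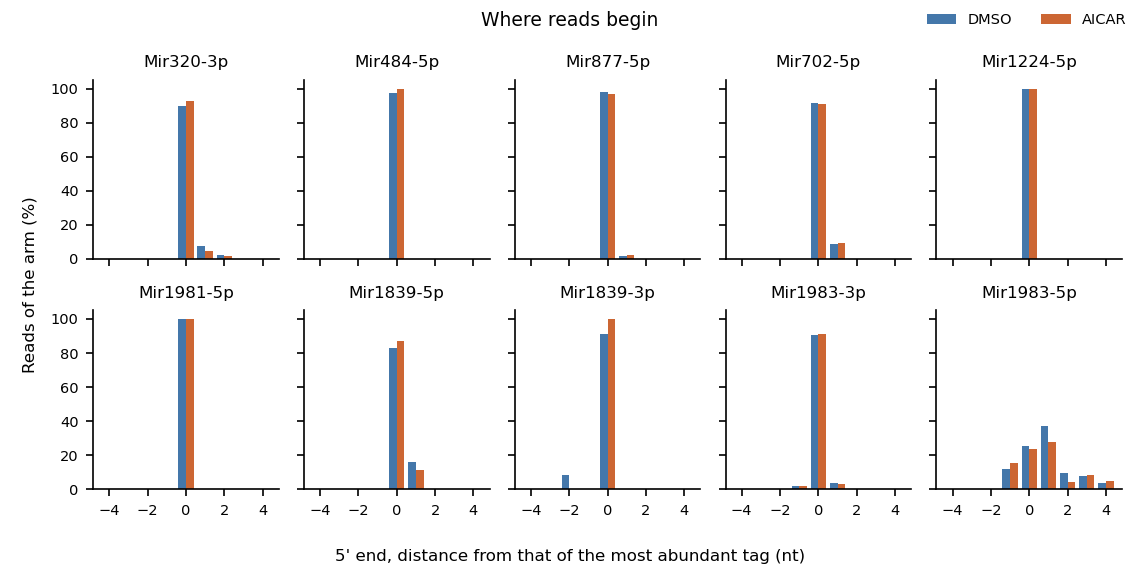
Share of the reads of each member arm (vertical axis, percent) by the 5′ end of the read, as the distance in nt from the 5′ end of the most abundant tag of the arm, for DMSO and AICAR; ends with under 1% of the reads of an arm, and those over 4 nt away, are not drawn. Mir484-5p, Mir1224-5p and Mir1981-5p have a single bar, Mir1839-5p, Mir702-5p and Mir320-3p have a smaller second bar 1 nt downstream, and Mir1983-5p spreads over 6 positions.

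Mirtron tags differed more at the 3′ end than at the 5′ end. Mir877-5p peaked at 24 nt, with 74.9% of the DMSO and 75.3% of the AICAR reads, whereas the RefSeq entry has 20 nt and matched only 1.47% of the reads exactly. Mir702-5p peaked at 21 nt (81.2% and 85.2%). Mir1981-5p was divided between 23 nt (44.9% and 51.9%) and 22 nt (38.6% and 32.7%). Mir1224-5p had no leading length. Its tags of 21, 22, 23 and 24 nt had 11, 14, 15 and 21 reads under DMSO and 18, 13, 12 and 11 under AICAR. Of 377 other arms tested with at least 100 reads, 355 had a shorter and 6 a longer median tag than the 24 nt of Mir877-5p.

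**Figure D3:**
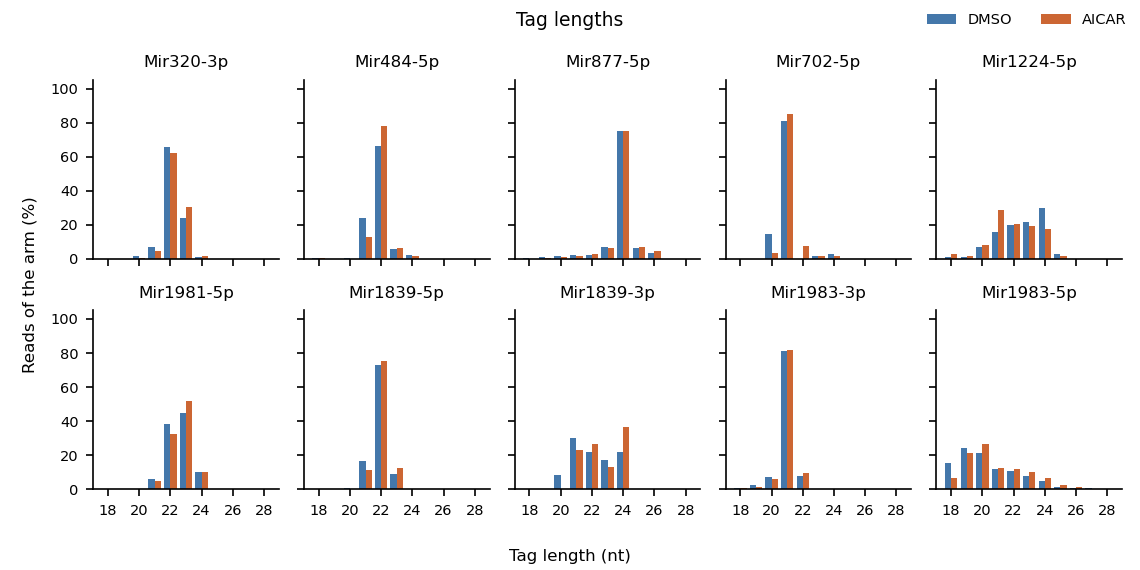
Share of the reads of each member arm (vertical axis, percent) by tag length in nt, for DMSO and AICAR. Mir877-5p stands at 24 nt, Mir702-5p and Mir1983-3p at 21 nt, and the tags of Mir1224-5p and Mir1983-5p spread over several lengths.

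Mir1839 was the second most abundant member. It lies at chr7:81529916-81529988 on the plus strand (ENSMUSG00000104618), within the lincRNA gene 2900076A07Rik, and 66 nt of it are shared with an annotated scaRNA of 127 nt (ENSMUSG00000093107). The scaRNA had 0 reads outside the hairpin in either library, which allows up to 0.159 RPM under DMSO and 0.142 RPM under AICAR. Both arms are shown in capitals, since both gave tags.
Mir1839: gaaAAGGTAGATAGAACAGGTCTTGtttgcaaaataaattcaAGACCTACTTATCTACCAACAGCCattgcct
Mir1839-5p was read 17329 times under DMSO (918 RPM) and 21180 times under AICAR (1004 RPM). The fold change was 1.09 (1.07 to 1.12), and 0.804 relative to hairpin reads. The 3p arm had 23 and 30 reads, so that 99.9% of the reads lay on the 5p arm in each library.
The 5′ end of Mir1839-5p was divided. Position 4 held 83.1% of the DMSO reads (82.5% to 83.7%) and 87.3% of the AICAR reads (86.9% to 87.8%), and position 5 held 16.2% (15.6% to 16.7%) and 11.5% (11.1% to 11.9%). The later start gave the tag aGGTAGATagaacaggtcttg, with 2473 and 2074 reads, whose seed in capitals is shifted by 1 base. At this depth the share of the later start was higher in the DMSO library by more than the counting error. A higher share of the main 5′ end in the AICAR library was also seen in 214 of the 377 other arms (56.8%) and in 6 of the 10 member arms. Tags under 21 nt held 0.767% and 0.345% of the Mir1839-5p reads, and without them the share at position 4 was 83.4% under DMSO and 87.4% under AICAR.

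Over both libraries together, though not under AICAR alone, Mir1983 had the largest share of reads on the minor arm among the 8 members. It lies at chr13:21896918-21897049 on the minus strand (ENSMUSG00000088148), and RefSeq places the isoleucine tRNA gene n-TItat14 at its positions 19 to 112. The hairpin is shown with the most abundant tag of each arm in capitals.
Mir1983: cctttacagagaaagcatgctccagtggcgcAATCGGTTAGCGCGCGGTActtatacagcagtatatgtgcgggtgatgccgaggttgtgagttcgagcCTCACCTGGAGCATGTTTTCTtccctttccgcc
The 3p arm had 1155 reads under DMSO (61.2 RPM) and 1488 under AICAR (70.6 RPM). The fold change was 1.15 (1.07 to 1.25), and 0.848 relative to hairpin reads. The 5p arm had 307 (16.3 RPM) and 153 reads (7.25 RPM). It was lower in the AICAR library at a fold change of 0.446 (0.365 to 0.543, p = 3.9e-17 by Fisher's exact test of the libraries). The 3p arm therefore held 79.0% of the Mir1983 reads under DMSO (76.8% to 81.01%) and 90.7% under AICAR (89.2% to 91.99%), and these intervals do not overlap. With tags of at least 21 nt only, the shares were 89.6% and 95.2%.
The arms also differed in the form of their tags. Of the Mir1983-3p reads, 90.8% began at position 100 and 81.3% had 21 nt. The main tag has 13 bases inside the tRNA gene and 8 past its end, the part of the transcript that is removed when a tRNA matures. Tags across that end had 1117 and 1437 reads. No tag lay wholly beyond it, but the search could hardly find one. The hairpin stops at position 132, and the shortest tags have 18 nt. Reads on the 5p arm were spread over 7 start positions with at least 1% of the reads each, with 34.1% at the most common one, and only 4 of the 377 other arms were less uniform. They were also short, with 60.9% of the DMSO and 54.9% of the AICAR reads under 21 nt.
Counted by the tRNA gene and not by the arm, 96 tags inside it had 345 reads under DMSO and 202 under AICAR (fold change 0.524, 0.438 to 0.625). With tags of at least 21 nt only, Mir1983-5p had a fold change of 0.514 and no longer passed the fold threshold. Tags inside the gene may also come from other isoleucine tRNA genes, which was not analysed here.

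**Figure D4:**
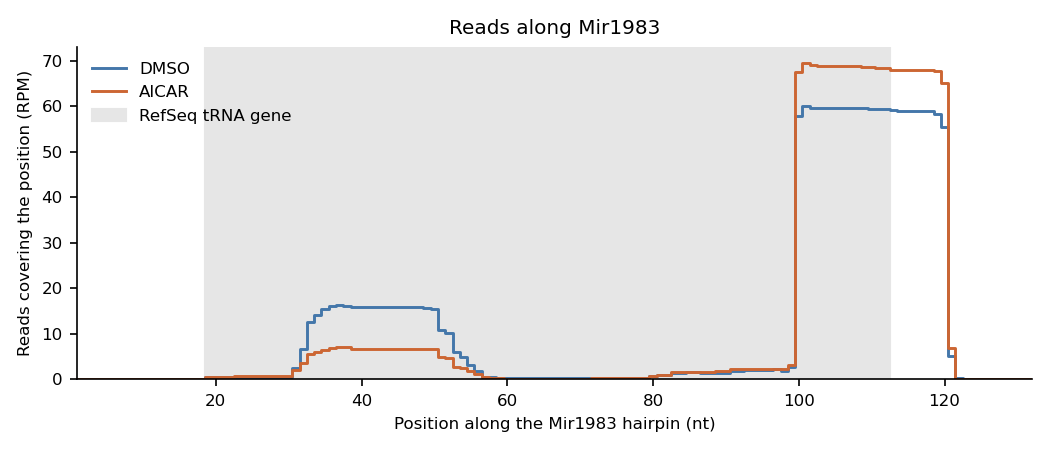
Reads covering each position of the Mir1983 hairpin (horizontal axis, nt from its 5′ end) in RPM, for DMSO and AICAR, with the span of the RefSeq tRNA gene in grey. The block on the right crosses the end of the tRNA gene and is higher in AICAR, and the block on the left lies inside the gene and is lower in AICAR.

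Most members had a strong arm bias, as did most other hairpins. At least 90% of the reads lay on 1 arm in each library for 6 of the 8 hairpins, the exceptions being Mir1983 and Mir702, for which the share was 98.6% under DMSO (92.3% to 99.7%) and 88.5% under AICAR (78.2% to 94.3%). Of 363 other hairpins with at least 100 reads, 207 (57.02%) met the same limit, and their median share of the main arm was 95.3%. By that share Mir1983 lay above 95 of the 363 and Mir702 above 165, and the other 6 members above 231 to 319. Members' 5′ ends were not more uniform as a group. The most common 5′ end held 99.99% of the Mir1981-5p reads but 85.4% of the Mir1839-5p reads, around a median of 97.6% in the 377 other arms. Fewer tags under 21 nt in the AICAR library were seen in 8 of the 10 member arms and in 317 of the 377 others (84.1%).

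Untemplated bases at the 3′ end were common on several members. Such bases are known to be added by nucleotidyl transferases after the hairpin is cut. They were counted as 1 or 2 bases past an exact match that the hairpin does not continue. Over both libraries they ended 40.3% of the Mir702-5p reads, 31.1% of the Mir1224-5p reads, 27.3% of the Mir877-5p reads and 23.02% of the Mir320-3p reads, beside a median of 7.92% in the 377 other arms. Mir1981-5p, the mirtron with the most reads, had 8.098%. Mir702-5p and Mir1224-5p rest on few reads. Their shares under DMSO were 38.9% (30.5% to 48.2%) and 32.7% (24.4% to 42.2%), and under AICAR 41.9% (32.4% to 52.1%) and 29.2% (20.8% to 39.4%).
The 4 leading extended tags of Mir320-3p show the kind of addition, with the added bases in capitals.
Mir320-3p tag 1: aaaagctgggttgagagggcgaT
Mir320-3p tag 2: aaaagctgggttgagagggcgT
Mir320-3p tag 3: aaaagctgggttgagagggcgaaT
Mir320-3p tag 4: aaaagctgggttgagagggcgTT
They had 5514, 5221, 1692 and 1015 reads under DMSO and 10228, 8402, 3080 and 1729 under AICAR. Uridine alone made up 89.3% of the additions on Mir320-3p and 72.9% on Mir1981-5p. On Mir1839-5p adenosine alone made up 91.3%, mostly on the tag aaggtagatagaacaggtcttgA with 982 and 1567 reads. An added base that equals the next hairpin base cannot be seen, so adenosine past the end of Mir320-3p and uridine past the end of Mir1839-5p were counted as templated. The additions on Mir320-3p were higher in the AICAR library, at 24.9% (24.7% to 25.2%) against 20.4% (20.2% to 20.7%), as they were in 6 of the 10 member arms and 284 of the 377 others (75.3%).

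**Figure D5:**
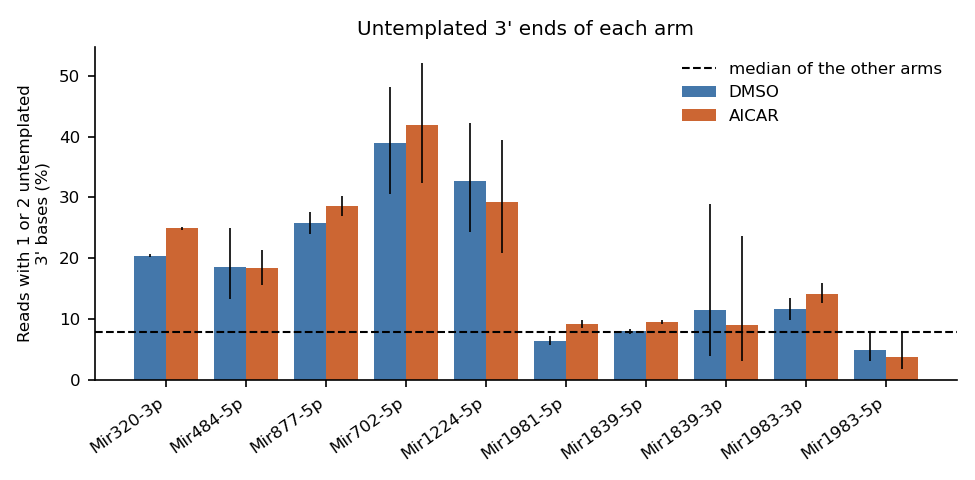
Share of the reads of each member arm that end in 1 or 2 untemplated bases (vertical axis, percent), for DMSO and AICAR, with 95% Wilson intervals and the median of 377 other arms as a dashed line. Mir702-5p, Mir1224-5p, Mir877-5p, Mir320-3p and Mir484-5p stand furthest above the line in both libraries. Mir1983-3p, Mir1839-5p and Mir1839-3p also lie above it in both, Mir1981-5p lies close to it, and Mir1983-5p lies below it.

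The annotation holds other hairpins at similar positions. Whether they are made in the same ways as the members was not tested. Beside the 4 mirtrons named above, 23 hairpins have both ends within 10 nt of the ends of an intron, and 20 of them had reads. Only 3 of their arms reached 1 RPM in a library, and of these 0 were called higher and 1 lower. The lower one was Mir3102-5p, with 136 and 76 reads, with an interval of the fold change from 0.373 to 0.667. Mir3102-3p had 194 and 282 reads (1.301, 1.08 to 1.57), and the intron's last base was the 3′ end of 43.1% of them. Mir3062-5p had 60 and 53 reads. At the intron's splice site lay the 5′ end of only 2 Mir3102-5p reads (0.943%) and of 0 Mir3062-5p reads. Mir1981-5p and Mir877-5p thus had the most reads of any arm tested among the 27 hairpins with both ends within 10 nt of an intron's ends.
At annotated snoRNA or scaRNA genes there were 11 hairpins beside Mir1839, and none of the 6 arms tested was called (Fisher's exact test), although 4 had p under 0.05. Mir664-5p had 257 and 216 reads, Mir1949-3p 115 and 174, Mir677-5p 94 and 76, Mir3068-3p 31 and 19, and Mir3068-5p 20 and 24. Their most common 5′ end held between 46.0% (Mir3068-3p) and 83.3% (Mir664-5p) of the reads, below the 85.4% of Mir1839-5p. By position, 14 hairpins, none of them a member, begin within 10 nt of the start of another gene's transcript. Their 2 tested arms, Mir677-5p and Mir5121-3p (14 and 26 reads), were also among the 6 at snoRNA or scaRNA genes. Neither was called, and Mir677-5p had p under 0.05 (Fisher's exact test).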

How the data were processed

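Small RNA of 1 DMSO and 1 AICAR library was used. The authors removed low-quality, contaminant and short reads, collapsed identical clean reads, and deposited the length, the read count (raw, not normalized) and the sequence of every tag, without alignment. Tags ran from 18 to 44 nt. They were matched without mismatch to 1174 hairpins of GENCODE release M21 (GRCm38), and the arms were divided at the middle of the hairpin. Tags were not screened against the genome, and 0 member tags matched another hairpin or the transcript of another locus in GENCODE. GENCODE lists no tRNA gene at Mir1983, so the search does not settle whether Mir1983 tags match other tRNA genes. J1 comes from another strain than the reference, so a strain difference could hide tags or look like an added 3′ base. Counts were divided by the clean reads and multiplied by 1000000 (RPM). Arms with at least 1 RPM in a library were tested by Fisher's exact test (two-sided, p at most 0.01), with a fold change past 2 or 0.5 for a call. Shares carry 95% Wilson intervals and fold changes exact binomial ones. A zero count allows up to 3 reads. The hairpin sequence of Mir320 is not reported here. The members and gene lists were chosen with earlier results of these data known. All members and arms are named, and of each annotation list at most the 5 arms with the most reads that were tested. On simulated data 297 of 297 planted tags were placed, 0 of 20000 random tags matched, and 200 of 200 simulated 4-fold differences and 0 of 316 unchanged arms were called. The simulated counts had Poisson spread only, without variation between libraries, so these calls give no error rate for the real libraries. Python 3.11.15, numpy 2.4.6, scipy 1.17.1, matplotlib 3.10.9, ViennaRNA 2.7.2, R 4.3.3, edgeR 4.0.16 and DESeq2 1.42.0 were used. The alternatives were other denominators, tag rules, filters and tests.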

Additional observations from a re-analysis of the deposited data

How the results depend on the processing

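The rise of Mir484-5p passed under each alternative except edgeR's exact test with an assumed coefficient of variation of 0.4, under which 0 member arms were higher and 0 lower. With that test 9 of all arms passed, and with a coefficient of 0.2 there were 64, beside 101 in the main comparison. At least 10 RPM left 46. Mir1983-5p was not called with tags of at least 21 nt only (0 arms lower, fold change 0.514), and the cause was not tested. Relative to hairpin reads, 6 arms turned below 1: Mir320-3p (0.842), Mir877-5p (0.7601), Mir1981-5p (0.984), Mir1839-5p (0.804), Mir1839-3p (0.858) and Mir1983-3p (0.848). With TMM scaling Mir877-5p (0.928) and Mir1839-5p (0.982) did, and with median-ratio scaling Mir877-5p (0.963). None of these was called. The split of all arms called was 54 higher and 47 lower, 20 and 111 relative to hairpin reads, 41 and 61 with TMM, 47 and 57 with median-ratio scaling, 69 and 28 with tags of at least 21 nt, and 66 and 36 with untemplated 3′ bases allowed.

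The median share at the main 5′ end over the member arms was 93.9%. Tags of 21 nt or more alone gave 95.4%, and it was 94.9% with untemplated 3′ bases allowed. At the RefSeq 5′ ends it was 97.6%, but this median leaves out Mir320-3p, Mir1839-3p and Mir1983-5p, which had no RefSeq 5′ end. The share of each arm kept was unchanged, so the higher median comes from the arms left out and not from more uniform ends. The number of hairpins with at least 90% of reads on 1 arm was 6, and 7 with untemplated 3′ bases allowed. Removing tags that match a transcript of another locus, chosen after seeing the data, changed no member value. It could not do so, as 0 member tags matched such a transcript. The search of the whole genome was not run, as no genome was used here. No paired analysis was possible because each group has 1 library, and for the same reason no library could be left out. With 1 library per treatment, culture and library preparation cannot be told apart from AICAR, and arms of under 100 reads allow only large differences to be seen.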
